A study of Mus musculus with 22 samples.

Results

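Regulatory T cells (Tregs) sorted from visceral fat 9 weeks after adoptive transfer were compared with Tregs sorted from the visceral fat of mice on a lean diet. The comparison took 10 of the 22 RNA-seq libraries of the series, chosen by their labels: 4 transfer libraries, 2 WT and 2 KO, and 6 lean diet libraries, 3 WT and 3 KO. WT and KO refer to Bmal1, and the allele that was deleted is not named in the labels. All 10 libraries were made from Foxp3YFP+ Tregs of male mice of the strain C57BL/6 Foxp3.Cre-YFP, in which cells that express Foxp3 make Cre and YFP. Sorting took place at ZT0, when lights come on. The lean diet mice were 18 weeks old, and the mice of the transfer experiment were 20 weeks old at sacrifice. The host strain, the tissue that the transferred cells came from and any receptor transgene are not given in the labels. The titles of the transfer libraries name no diet. Each library was made from 1000 cells sorted in 2 rounds. The other 12 libraries, 3 WT and 3 KO each after 4 weeks (mice of 18 weeks) and after 16 weeks (mice of 30 weeks) of high fat diet, are used only for the range of levels and segment shares over the diets and in 1 of the alternative fits.

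Tregs restrain other immune cells and depend on the transcription factor FOXP3. Those of visceral fat form a distinct population that uses the nuclear receptor PPARG, bears the IL-33 receptor chain ST2 and is known for expanded T cell receptor clones. Adoptive transfer moves T cells from donor animals into hosts, where some of them settle in tissues. BMAL1, encoded by Arntl, is the clock transcription factor that drives the REV-ERB genes Nr1d1 and Nr1d2.

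The transfer and the lean diet libraries belong to separate experiments. Total counts were 4814337 to 5990319 in the transfer and 1955940 to 2804378 in the lean libraries. Transfer, experiment, sequencing depth, age and the T cell receptor use described below therefore differ together and cannot be told apart. Host, donor tissue and diet, not named for the transfer libraries, may differ with them too. Only effects that both genotypes show are described as differences between transferred and lean diet Tregs. The 3 genes whose difference between transfer and lean libraries varied with genotype are given separately at the end. Levels are given in CPM, which relates each count to the TMM-normalized total of its library. The floor used for a gene without a count is 3 counts, or 1.07 to 1.56 CPM in lean and 0.526 to 0.644 CPM in transfer libraries. It covers counting error only. Whether replicates are separate animals is not stated in the labels. The p-values below therefore reflect the spread among these libraries alone. Foxp3 was present in every library at 443 to 575 CPM in the lean and 549 to 669.5 CPM in the transfer libraries, while Cd8a, the coreceptor of cytotoxic T cells, had no count in 9 of the 10 libraries.

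Arntl, the targeted gene, had 73.1, 67.2 and 63.2 CPM in lean WT, 98.9, 75.7 and 71.9 in lean KO, 94.02 and 81.7 in transferred WT and 94.2 and 93.8 in transferred KO libraries. Libraries labelled KO were not lower than those labelled WT. The counts cover the whole gene, so they do not show whether a part of it was lost. Nr1d2, its target, had 50.1, 41.97 and 48.8 CPM in lean WT, 2.5, 1.55 and 0 in lean KO, 25.1 and 30.1 in transferred WT and 2.93 and 1.28 in transferred KO libraries. Every KO library lay below every WT library in both experiments. Nr1d1, the other REV-ERB gene, had 44.1, 25.3 and 38.6 CPM in lean WT, 4.29, 1.04 and 0.893 in lean KO, 69.3 and 102 in transferred WT and 1.47 and 0.732 in transferred KO libraries, again with no overlap between genotypes. Its reads cannot be told apart from those of Thra, which overlaps it on the opposite strand. Between transfer and lean libraries Arntl (log2 fold change 0.28 ± 0.12 SE, adjusted p = 0.129) did not pass the test. Nor did Nr1d2 (log2 fold change -0.44 ± 0.35 SE, adjusted p = 0.439) or Nr1d1 (log2 fold change 0.83 ± 0.38 SE, adjusted p = 0.164).

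Segments of the T cell receptor gave the 3 greatest log2 fold changes among the genes that were higher in transferred Tregs of both genotypes, those of Trav14n-3, Trdv4 and Trbv2. Each chain of the receptor is assembled from V and J segments that a developing T cell joins and passes on to its progeny, and a mixed population uses many V segments. In the transfer libraries nearly all beta chain V counts fell on Trbv2, and nearly all alpha chain V counts fell on Trav14n-3. The exons of these segments are shown because the reads that carry this result come from them. Trbv2 lies on the plus strand of chromosome 6, and its last 290 bases of V exon are at chr6:41047706-41047995. Trav14n-3 lies on the plus strand of chromosome 14, with its last 290 bases of V exon at chr14:53370286-53370575. The alpha locus holds near-identical copies of it, Trav14-3 at chr14:53763405-53763694 and Trav14d-3-dv8 at chr14:53078756-53079045. All sequences are 5′ to 3′ from GENCODE M21 transcripts on GRCm38 (mm10), and capitals mark the bases of the copies that differ from Trav14n-3.
Trbv2: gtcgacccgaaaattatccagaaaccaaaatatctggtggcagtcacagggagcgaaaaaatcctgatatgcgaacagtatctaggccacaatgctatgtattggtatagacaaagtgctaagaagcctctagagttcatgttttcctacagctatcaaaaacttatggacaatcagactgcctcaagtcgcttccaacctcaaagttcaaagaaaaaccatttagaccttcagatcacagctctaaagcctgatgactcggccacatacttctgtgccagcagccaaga
Trav14n-3: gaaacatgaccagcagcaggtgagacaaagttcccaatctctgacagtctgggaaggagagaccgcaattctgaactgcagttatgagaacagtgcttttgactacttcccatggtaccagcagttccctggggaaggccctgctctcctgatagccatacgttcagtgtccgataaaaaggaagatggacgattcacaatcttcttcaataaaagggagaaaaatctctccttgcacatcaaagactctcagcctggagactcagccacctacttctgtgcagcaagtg
Trav14-3: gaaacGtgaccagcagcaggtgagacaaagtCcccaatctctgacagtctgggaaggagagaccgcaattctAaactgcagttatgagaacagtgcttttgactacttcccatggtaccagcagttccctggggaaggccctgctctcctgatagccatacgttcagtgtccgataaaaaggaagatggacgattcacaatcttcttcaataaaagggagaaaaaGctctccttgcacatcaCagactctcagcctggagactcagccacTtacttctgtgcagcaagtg
Trav14d-3-dv8: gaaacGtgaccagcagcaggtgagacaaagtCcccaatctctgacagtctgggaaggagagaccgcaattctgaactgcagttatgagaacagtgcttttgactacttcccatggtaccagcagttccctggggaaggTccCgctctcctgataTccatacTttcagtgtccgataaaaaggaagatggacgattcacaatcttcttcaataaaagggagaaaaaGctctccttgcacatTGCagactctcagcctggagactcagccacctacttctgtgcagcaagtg

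Over these 290 bases Trav14-3 differed from Trav14n-3 at 6 bases (97.9% identity) and Trav14d-3-dv8 at 10 (96.6%). Of the 253 windows of 38 bases in the Trbv2 exon, 100% occurred in no other gene of the annotation, against 34.4% for Trav14n-3. A read of 38 bases from Trav14n-3 can therefore match a copy too, so the reads are tied less surely to Trav14n-3 than to the group of copies. In the transfer libraries Trav14-3 had 8, 22, 3 and 1 counts and Trav14d-3-dv8 had 3, 9, 6 and 4 counts. Trav14n-3 had 11311, 23246, 21048 and 23681 counts there. Of the windows of Trav14-3 and Trav14d-3-dv8, 24.1% and 33.6% occurred in no other gene. Windows were taken singly, although the reads are paired.

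Trbv2 took 97.3% and 98.5% of the Trbv counts in transferred WT and 99.1% and 99.1% in transferred KO libraries. It took 7.68%, 3.05% and 2.78% in lean WT and 1.24%, 2.11% and 2.23% in lean KO libraries, and 1.81% to 7.25% in the 12 high fat diet libraries of the series. Each transfer library thus had a beta chain V use made of nearly 1 segment, and it was the same segment in all 4. In the lean libraries the leading segment was Trbv1 in 4 libraries, Trbv3 in 1 and Trbv19 in 1, with 13.3% to 46.7% of the counts. The share of the leading segment averaged 98.5 ± 0.84% (SD, n = 4) after transfer and 28.2 ± 13.7% (SD, n = 6) on lean diet (exact two-sided permutation test over libraries, p = 0.00476, the smallest that 210 arrangements can give, BH 0.00635 over 4 tests).

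Trav14n-3 took 97.8% and 95.9% of the Trav counts in transferred WT and 99.1% and 99.0% in transferred KO libraries. It took 1.24%, 1.92% and 0.26% in lean WT and 2.15%, 1.49% and 0.935% in lean KO libraries. All Trav14 segments summed, the near-identical copies among them, took 12.78%, 6.897% and 5.195% in lean WT and 26.95%, 3.545% and 11.21% in lean KO libraries. In the transfer libraries this sum was 97.97% and 96.1% in WT and 99.12% and 99.09% in KO, so the groups stayed apart at the level of the whole group of copies. The leading alpha segment of the lean libraries was a different one in each of the 6, with 8.05% to 19.7% of the counts. Its share averaged 98.0 ± 1.47% (SD, n = 4) after transfer and 14.2 ± 4.68% (SD, n = 6) on lean diet (exact permutation p = 0.00476, BH 0.00635). It took 6 to 11 alpha segments to reach 50% of the Trav counts in lean libraries and 1 in each transfer library (exact permutation p = 0.00476, BH 0.00635). For the beta chain these numbers were 2 to 6 and 1 (exact permutation p = 0.0191, BH 0.0191). All V counts of a lean library came to 569 to 1291 for the beta and 214 to 536 for the alpha chain, against 5884 to 14750 and 11559 to 24230 after transfer.

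**Figure D1:**
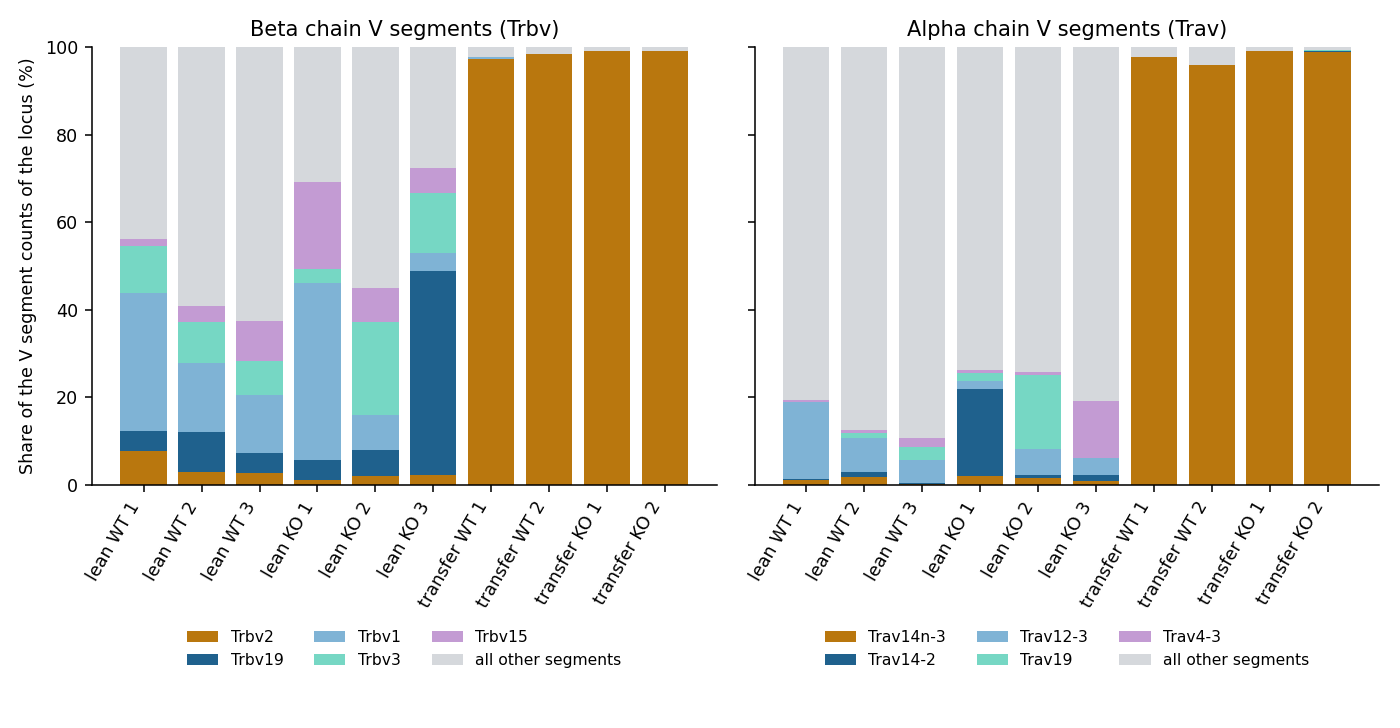
Share of each V segment in the counts of the beta (left) and alpha (right) V segments, in percent, for each lean and transfer library. The orange bars of Trbv2 and Trav14n-3 reach 97.3% to 99.1% and 95.9% to 99.1% in the 4 transfer libraries, while each lean library mixes many segments, shown in the other colours and in grey.

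The levels of the segments moved with their shares. Trbv2 had 29.4, 10.6 and 10.7 CPM in lean WT, 5.71, 6.22 and 9.38 in lean KO, 1229 and 2104 in transferred WT and 2503 and 2674 in transferred KO libraries (log2 fold change 7.47 ± 0.45 SE, adjusted p = 5.47e-05). Trav14n-3 had 2.76, 4.08 and 0.465 CPM in lean WT, 3.93, 4.15 and 0.893 in lean KO, 2428 and 4075 in transferred WT and 4409 and 4331 in transferred KO libraries (log2 fold change 10.41 ± 0.30 SE, adjusted p = 2.57e-07). The groups were far apart in both genotypes, with fitted differences of 178-fold for Trbv2 and 1363-fold for Trav14n-3. Trbv1, a leading beta segment of lean Tregs, had 121, 54.6 and 51.1 CPM in lean WT, 187, 23.8 and 16.97 in lean KO, 6.01 and 0 in transferred WT and 0.209 and 0 in transferred KO libraries (log2 fold change -5.74 ± 1.28 SE, adjusted p = 0.0237). Its call was lost when transferred WT 2, transferred KO 1 or transferred KO 2 was left out (adjusted p = 0.0706, 0.0628 and 0.0672). Trbv19 had 17.5, 31.4 and 17.2 CPM in lean WT, 20.4, 17.1 and 196 in lean KO, 0.215 and 0 in transferred WT and 0 and 2.01 in transferred KO libraries (log2 fold change -6.38 ± 1.26 SE, adjusted p = 0.0136). Most of its lean mean came from lean KO 3. Other V segments had no count in any transfer library. Against a floor of 3 counts in each of them, Trbv3 was at least 67.8-fold, Trbv15 at least 54.5-fold, Trbv26 at least 36.2-fold and Trbv16 at least 28.0-fold lower than in lean libraries.

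The constant genes Trac and Trbc2 rose as well. Trac (chr14:54220521-54224206), the only alpha constant gene, had 455, 478 and 496 CPM in lean WT, 490, 662 and 537 in lean KO, 4018 and 6951 in transferred WT and 7102 and 7787 in transferred KO libraries (log2 fold change 3.63 ± 0.15 SE, adjusted p = 2.88e-07). Every transfer library was above every lean library, by a fitted 12.3-fold. Trbc2 (chr6:41546730-41548352), the beta constant gene next to the Trbj2 segments, had 450.1, 438 and 459.8 CPM in lean WT, 422, 336 and 416 in lean KO, 2490 and 3231 in transferred WT and 3884 and 4098 in transferred KO libraries (log2 fold change 3.02 ± 0.13 SE, adjusted p = 7.14e-08). The other beta constant gene, Trbc1, had 330.1, 498 and 398 CPM in lean WT, 641, 501 and 628 in lean KO, 369 and 182 in transferred WT and 238 and 190.2 in transferred KO libraries. Its KO groups did not overlap, while its WT groups did. Trbc2 held 87.1% to 95.6% of the counts of both beta constant genes after transfer and 39.7% to 57.7% on lean diet. Reads that both beta constant genes match equally well may have been left out or split, since the counting rule for them is not given in the sources used here. Of the CD3 chains, Cd247 (0.48) and Cd3g (0.20) were higher in both genotypes by small amounts (log2 fold change in parentheses). Cd3e had -0.047 and Cd3d 0.065 as log2 fold changes and did not pass the test (adjusted p = 0.696 and 0.615). Cd3g lost its call in 8 of the 10 fits without 1 library (highest adjusted p = 0.15).

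Among joining segments, Traj21 had 5.98, 6.11 and 5.58 CPM in lean WT, 5, 5.18 and 5.36 in lean KO, 61.8 and 95.9 in transferred WT and 112 and 113 in transferred KO libraries (log2 fold change 4.09 ± 0.20 SE, adjusted p = 2.97e-10). It led the Traj counts in all 4 transfer libraries, with 29.0% to 34.2% of them, and held 3.74% to 5.88% in the lean libraries. Trbj2-7 led the Trbj counts after transfer with 18.8% to 28.1%, against 7.35% to 17.4% on lean diet. Genes of the delta chain, which lie within the alpha locus between Trav14n-3 and Traj21, also rose. Trdv4, a delta V segment at chr14:54074905-54075515, had 0, 0 and 0 CPM in lean WT, 0.357, 0 and 0 in lean KO, 66.1 and 72.05 in transferred WT and 133 and 127 in transferred KO libraries (log2 fold change 9.85 ± 0.33 SE, adjusted p = 1.13e-12). Trdc, the delta constant gene at chr14:54142851-54148868, had 1.84, 0 and 0 CPM in lean WT, 1.79, 0 and 0 in lean KO, 22.8 and 70.8 in transferred WT and 118 and 116 in transferred KO libraries (log2 fold change 6.88 ± 0.59 SE, adjusted p = 2.94e-05). Traj58, Traj59, Traj60 and Traj61, the alpha J segments nearest to Trdc, had 0.215 to 15.3 CPM in transfer libraries and at most 0.518 CPM in lean libraries. Joining a V to a J segment of the alpha chain usually cuts out what lies between them. Which chromosome or molecule these reads came from was not tested.

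Across all genes, a gene was called where the fit with genotype as a block gave an adjusted p under 0.05 (edgeR quasi-likelihood test, Benjamini-Hochberg), which held for 1694 of 11425 genes tested (14.8%), 852 higher (7.46%) and 842 lower (7.37%). A call was taken as shared where the fold change also had the same sign in both genotypes and the CPM ranges of transfer and lean libraries did not overlap within WT or within KO. Where libraries of a shared call lie apart within a genotype, this follows from the rule and is no separate support. Shared calls numbered 1362 (11.9%), of which 704 were higher (6.16%) and 658 lower (5.76%) after transfer. Of these, 459 (4.02%) differed by a log2 fold of 1 or more, 137 higher (1.2%) and 322 lower (2.82%), so the large differences lay mostly on the lower side. In WT alone 602 genes were called higher (5.27%) and 616 lower (5.39%). In KO alone 154 were higher (1.35%) and 227 lower (1.99%), 381 in all (3.33%). The stricter demand that a gene pass the threshold in both genotypes separately left 274 genes (2.4%), 121 higher (1.06%) and 153 lower (1.34%). The difference between transfer and lean libraries varied with genotype for 3 genes (0.0263%). Scaling mattered for the balance. With library totals in place of TMM the median log2 fold change of all genes tested moved from -0.0073 to -0.11. The calls of the block fit split into 576 higher and 1256 lower in place of 852 and 842, which is 31.4% higher against 50.3%. The kit does not mark the strand, so reads of a gene cannot be told apart from those of an overlapping gene. Overlaps with a gene of at least 10% of its counts were found for Cxcr5 (Bcl9l), Cd27 (Vamp1), Foxp3 (Flicr), Furin (Gm44851), Irf7 (Phrf1), Irf9 (Rnf31), Itgav (Gm13684), Msrb3 (Gm15910), Nfkb1 (Gm43430), Dbp (Sphk2), Npas2 (Gm3617), Ikzf2 (Gm28112) and Clock (Ube2n-ps1), and Psmb9 and Tap1 overlap each other.

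Part of the shared calls also lay outside the range of all diet libraries. In 380 of the 704 higher shared calls (54%) all 4 transfer libraries were above all 18 diet libraries of the series, lean and high fat. In 336 of the 658 lower shared calls (51.1%) all 4 were below all 18. Of all genes tested, 3.77% lay above and 3.06% below in this way. The 6 lean libraries are among the 18, and shared calls already had to lie apart from them within each genotype. The shares among shared calls are therefore raised by their own rule and are no separate support. Of the 431 genes tested that lay above, 380 were shared calls, and of the 350 below, 336 were. On a scale set over all 22 libraries, Tbx21 had 93.3 to 338 CPM and Cxcr3 151 to 570.3 CPM in the 12 high fat diet libraries, Il1rl1 had 241 to 906 CPM and Areg 282 to 919.7 CPM.

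**Figure D2:**
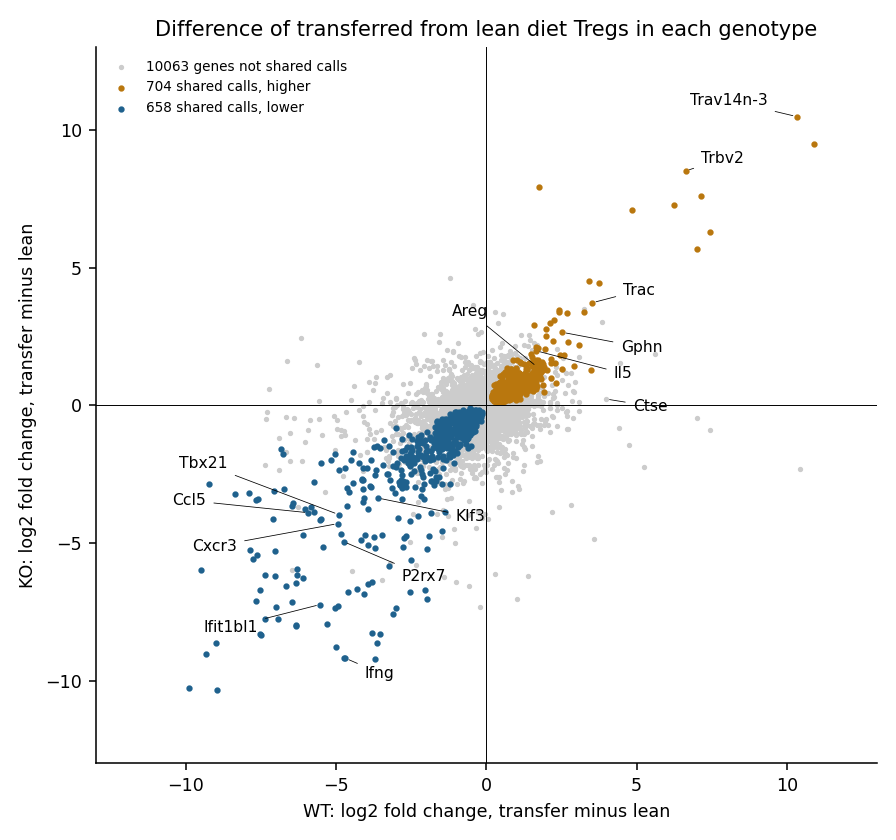
Log2 fold change of transfer over lean libraries in WT (horizontal axis) and in KO (vertical axis) for 11425 genes, with the 704 higher shared calls in orange and the 658 lower ones in blue. Shared calls have the same sign on both axes by definition; Trav14n-3 and Trbv2 lie at the far upper right, and Ctse, at 3.97 in WT and 0.23 in KO, lies off the diagonal.

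The genes that mark Tregs of visceral fat were mostly higher after transfer. Of the 26 genes of the adipose Treg signature, 24 passed the filter on low counts, 14 were shared calls higher and 1 was lower, and their median log2 fold change was 0.81, beside -0.0073 over all genes tested. By genotype the median was 1.04 in WT and 0.52 in KO. Counts of shared calls in this list and in those below stand beside 6.16% higher and 5.76% lower over all genes tested. Il1rl1, which encodes ST2, had 904, 357 and 537 CPM in lean WT, 728, 742 and 675 in lean KO, 1262 and 1228 in transferred WT and 1498 and 1397 in transferred KO libraries (log2 fold change 1.04 ± 0.21 SE, adjusted p = 0.0136). Klrg1, a lectin receptor of mature effector Tregs, had 1519, 714 and 941 CPM in lean WT, 1446, 1451 and 1443 in lean KO, 2160 and 2398 in transferred WT and 2335 and 2332 in transferred KO libraries (log2 fold change 0.90 ± 0.19 SE, adjusted p = 0.0145). Pparg had 108, 50.9 and 29.8 CPM in lean WT, 83.9, 71.01 and 60.7 in lean KO, 148 and 132 in transferred WT and 122 and 132 in transferred KO libraries (log2 fold change 0.98 ± 0.27 SE, adjusted p = 0.0368). In all 3 genes every transfer library was above every lean library. Gata3, a transcription factor shared with type 2 T helper cells, went from 1724 ± 332 CPM (SD, n = 6) to 2489 ± 199 CPM (SD, n = 4) (log2 fold change 0.55 ± 0.12 SE, adjusted p = 0.0116).

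The 3 higher members of the signature with the greatest fold changes, Il5, Areg and Cxcl2, encode secreted factors. Areg, the epidermal growth factor family ligand that fat and tissue Tregs release, had 982, 346 and 587 CPM in lean WT, 784, 859 and 1038 in lean KO, 1777 and 2339 in transferred WT and 2041 and 2657 in transferred KO libraries (log2 fold change 1.54 ± 0.27 SE, adjusted p = 0.00866). Il5, a type 2 cytokine that acts on eosinophils, had 45.1, 20.4 and 9.298 CPM in lean WT, 56.1, 50.8 and 23.2 in lean KO, 51.7 and 104 in transferred WT and 217 and 127 in transferred KO libraries (log2 fold change 1.83 ± 0.41 SE, adjusted p = 0.0206). Its groups did not overlap within a genotype but did across genotypes. The other shared higher members were Cxcl2 (1.20), Rora (1.03), Cd44 (0.98), Ltb4r1 (0.82), Plin2 (0.81), Itgav (0.71), Id2 (0.66) and Ccr2 (0.63). A value in parentheses directly after a gene is its log2 fold change. The single lower member was Il18r1, an IL-18 receptor chain, which went from 65.7 ± 11.3 CPM (SD, n = 6) to 15.9 ± 5.47 CPM (SD, n = 4) (log2 fold change -2.07 ± 0.22 SE, adjusted p = 6.08e-06). Il10, Ccr1, Hpgd, Il9r, Fgl2, Irf4 and Batf had positive and Prdm1 and Ccr3 negative fold changes without being shared calls. Cxcl2 lost its call in 8 of the 10 fits without 1 library (highest adjusted p = 0.106), and Ltb4r1 lost its call without transferred WT 1 or transferred WT 2 (highest adjusted p = 0.0739). Plin2 lost its call with all 22 libraries in the fit (adjusted p = 0.123). Pparg lost its call without lean WT 2, lean KO 2, lean KO 3 or any single transfer library (adjusted p = 0.0654 to 0.111). Il5 lost it without lean WT 2, transferred WT 2 or transferred KO 1 (0.0526, 0.0776 and 0.051) and Klrg1 without transferred WT 2 (0.0508).

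**Figure D3:**
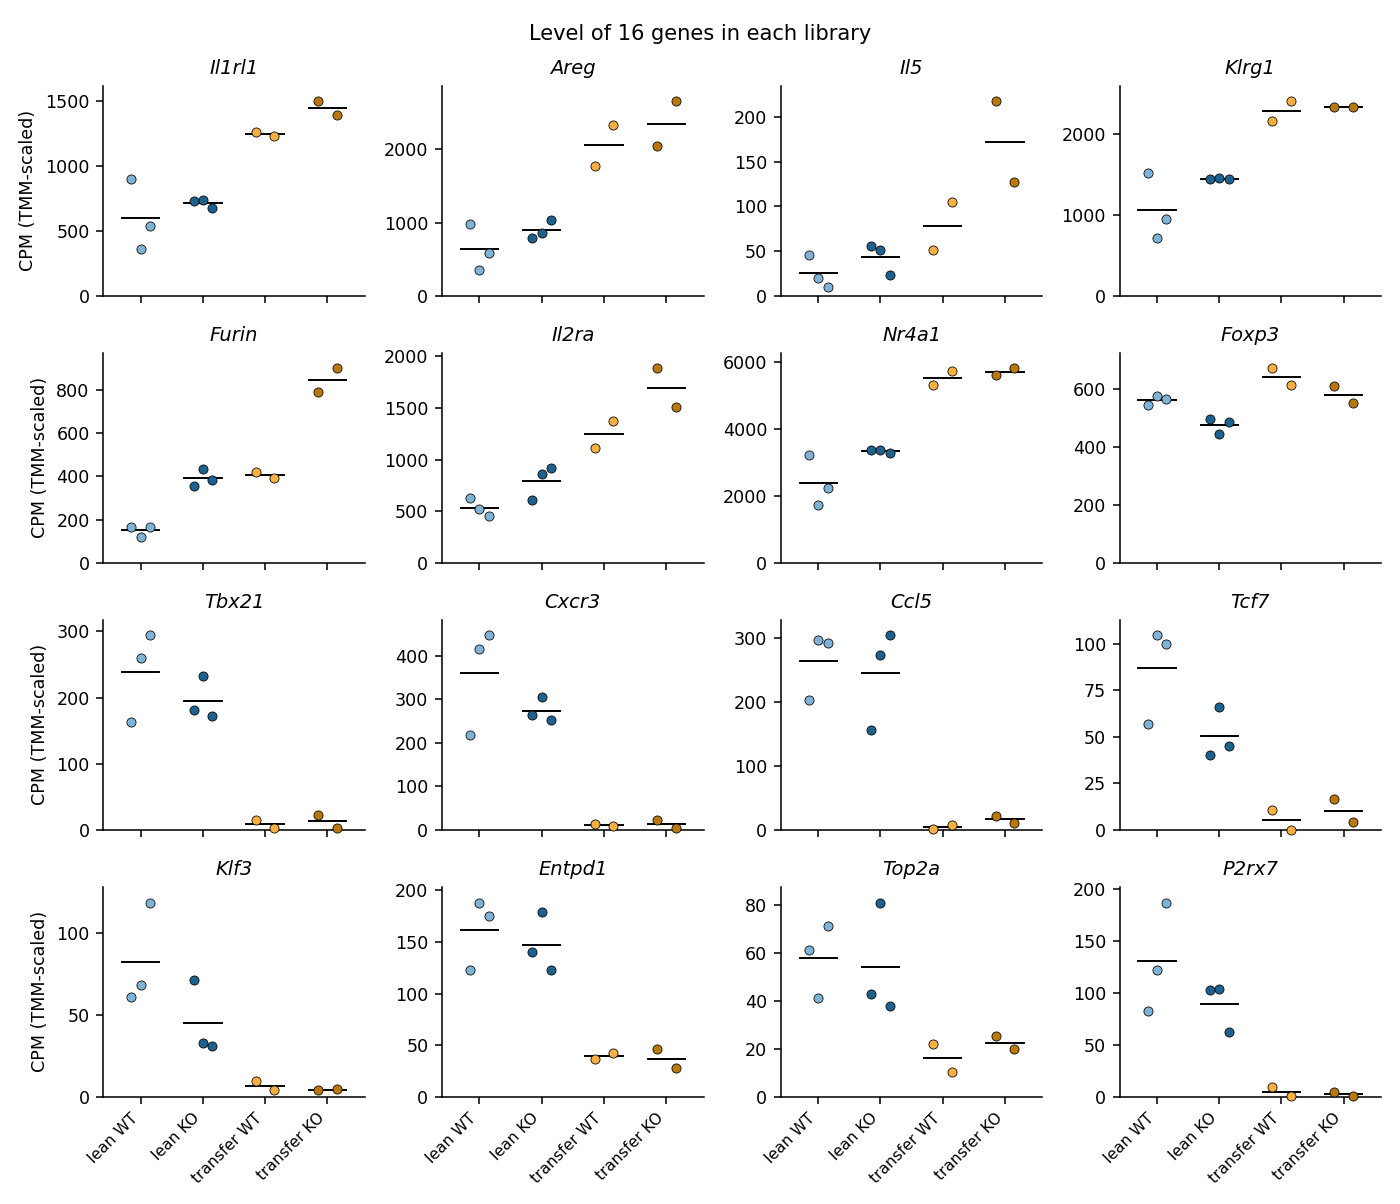
CPM of 16 genes in each library, with lean WT, lean KO, transferred WT and transferred KO on the horizontal axis, points for libraries and bars for group means. Genes of the adipose signature such as Il1rl1 and Areg sit higher in the transfer libraries. Tbx21, Cxcr3, Ccl5, Klf3 and P2rx7 sit near 0 there, and Tcf7 lies below every lean library. Foxp3 differs by a log2 fold of 0.24.

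Core Treg genes went both ways. All 20 listed genes were tested, 4 were shared calls higher and 5 lower, and the median was 0.019 (-0.081 with library totals). Foxp3 had 544, 575 and 566 CPM in lean WT, 494, 443 and 486 in lean KO, 669.5 and 614 in transferred WT and 609 and 549 in transferred KO libraries (log2 fold change 0.24 ± 0.069 SE, adjusted p = 0.0242). This small difference lost its call with library totals (adjusted p = 0.207) and without lean KO 2, transferred WT 1 or transferred KO 1 (0.0561, 0.0766 and 0.0852). Il2ra, the alpha chain of the IL-2 receptor, had 628, 517 and 451 CPM in lean WT, 608, 858 and 920.5 in lean KO, 1116 and 1373 in transferred WT and 1883 and 1505 in transferred KO libraries (log2 fold change 1.16 ± 0.12 SE, adjusted p = 6.36e-05). Every transfer library was above every lean library. The other higher members were Tnfrsf18 (0.48), which encodes GITR, and Capg (0.43), an actin capping protein. Ikzf2 (0.049), Ctla4 (0.41), Icos (0.19), Nrp1 (-0.15) and Tigit (-0.24) were not shared calls.

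The surface enzymes that make adenosine were lower. Entpd1, which encodes CD39, had 123, 188 and 175 CPM in lean WT, 141, 179 and 123 in lean KO, 36.5 and 42.6 in transferred WT and 46.1 and 27.6 in transferred KO libraries (log2 fold change -2.02 ± 0.17 SE, adjusted p = 8.15e-07), with no overlap between groups. Nt5e, which encodes the partner enzyme CD73, ranged from 38.4 to 79.97 CPM in the lean and 1.05 to 25.6 CPM in the transfer libraries (log2 fold change -2.44 ± 0.65 SE, adjusted p = 0.04). Nt5e lost its call in 6 of the 10 fits without 1 library (highest adjusted p = 0.124). Izumo1r, the folate receptor 4 of Tregs, had 184, 361 and 302 CPM in lean WT, 151, 242 and 286 in lean KO, 37.1 and 35.1 in transferred WT and 59.5 and 46.1 in transferred KO libraries (log2 fold change -2.52 ± 0.29 SE, adjusted p = 0.000722). Lrrc32 (-2.11), the anchor of latent TGF-beta, and Il2rb (-0.86), the IL-2 receptor beta chain, were lower too, the call of Lrrc32 being lost with all 22 libraries in the fit (adjusted p = 0.131).

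Among other suppressive and effector molecules more calls were higher than lower: 9 of 24 tested genes of that list (26 listed) were shared calls higher and 3 lower, the last being Entpd1, Nt5e and Lrrc32, with a median of 0.55. By genotype the median was 0.72 in WT and 0.33 in KO. Furin, a protease that activates TGF-beta precursors, had 166, 120.2 and 165 CPM in lean WT, 356, 434 and 384 in lean KO, 418 and 392 in transferred WT and 792 and 899 in transferred KO libraries (log2 fold change 1.27 ± 0.099 SE, adjusted p = 2.57e-07). Transferred WT libraries lay near the level of lean KO. Tgfb1 (0.72) itself, the galectins Lgals1 (0.90) and Lgals3 (1.13), Vim (0.76) and S100a6 (1.01) were higher as well. Vim lost its call without transferred WT 1 or transferred WT 2 (highest adjusted p = 0.062). Gzma, a granzyme, had 3.68, 0.815 and 1.86 CPM in lean WT, 0, 0 and 0 in lean KO, 5.15 and 9.12 in transferred WT and 1.89 and 15.9 in transferred KO libraries, low throughout (log2 fold change 3.20 ± 0.84 SE, adjusted p = 0.0165). Its call was lost without transferred KO 2 (adjusted p = 0.0549).

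Genes of resting and lymphoid tissue T cells were called lower more often than higher. Of 20 listed genes 18 were tested, 8 were shared calls lower and 1 was higher, with a median of -1.14 (-1.29 in WT and -1.17 in KO). Tcf7, the transcription factor of resting and stem-like T cells, had 56.5, 104 and 100 CPM in lean WT, 40.4, 65.8 and 45.1 in lean KO, 10.5 and 0.175 in transferred WT and 16.3 and 4.39 in transferred KO libraries (log2 fold change -3.11 ± 0.75 SE, adjusted p = 0.0299). Each transfer library was below every lean library for this gene. Tcf7 lost its call in 5 of the 10 fits without 1 library (highest adjusted p = 0.0823). Klf3, a Krüppel-like factor, had 60.7, 68.5 and 119 CPM in lean WT, 71.4, 32.6 and 30.8 in lean KO, 9.45 and 4.21 in transferred WT and 3.98 and 4.75 in transferred KO libraries (log2 fold change -3.50 ± 0.33 SE, adjusted p = 8.36e-06). Bach2, a repressor that keeps T cells undifferentiated, had 11.5, 15.9 and 14.9 CPM in lean WT, 14.6, 9.85 and 14.7 in lean KO, 0 and 0.175 in transferred WT and 1.26 and 1.83 in transferred KO libraries (log2 fold change -4.12 ± 0.57 SE, adjusted p = 0.000102). Satb1, a chromatin organiser, had 17.01, 18.7 and 21.9 CPM in lean WT, 15.7, 24.4 and 16.97 in lean KO, 1.29 and 1.58 in transferred WT and 0.628 and 0.366 in transferred KO libraries (log2 fold change -4.29 ± 0.39 SE, adjusted p = 1.46e-06). Noncoding genes, 2 in number, overlap it. Klf3, Bach2 and Satb1 too lay below every lean library in each transfer library. Bcl2 (-1.89), Id3 (-1.18) and S1pr1 (-0.44), the receptor for tissue exit, were lower by smaller amounts, the call of S1pr1 being lost with all 22 libraries (adjusted p = 0.114). Ccr7, a lymph node homing receptor, had 53.3, 83.5 and 128 CPM in lean WT, 48.9, 65.3 and 53.1 in lean KO, 1.29 and 32.8 in transferred WT and 0 and 1.83 in transferred KO libraries and was not called (log2 fold change -3.31 ± 0.94 SE, adjusted p = 0.0551). Il7r, the IL-7 receptor, was the higher member (log2 fold change 0.66 ± 0.10 SE, adjusted p = 0.000322).

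The type 1 T helper genes Tbx21 and Cxcr3 were far lower after transfer. Tbx21, which encodes T-bet, had 164, 259.6 and 294 CPM in lean WT, 181, 233 and 172 in lean KO, 14.4 and 2.104 in transferred WT and 22.4 and 3.11 in transferred KO libraries (log2 fold change -4.41 ± 0.63 SE, adjusted p = 0.00339). Cxcr3, the chemokine receptor that T-bet drives, had 218, 415 and 447 CPM in lean WT, 264, 305 and 253 in lean KO, 14.2 and 9.47 in transferred WT and 23.5 and 4.94 in transferred KO libraries (log2 fold change -4.61 ± 0.45 SE, adjusted p = 0.000512). Ccl5, a chemokine of memory and cytotoxic T cells, had 203, 298 and 293 CPM in lean WT, 156, 275 and 305 in lean KO, 0.859 and 7.36 in transferred WT and 21.99 and 10.97 in transferred KO libraries (log2 fold change -4.70 ± 0.58 SE, adjusted p = 0.00178). In all 3 every transfer library was below every lean library, by a fitted 21.2-fold, 24.4-fold and 25.9-fold. Ifng had 14.7, 32.2 and 32.1 CPM in lean WT, 29.3, 17.1 and 16.5 in lean KO, 1.72 and 0.351 in transferred WT and 0 and 0 in transferred KO libraries (log2 fold change -5.57 ± 0.59 SE, adjusted p = 1.39e-05). The predicted gene Gm49751 overlaps it. Ccl4 ranged from 4.598 to 49.3 CPM in the lean and 0 to 0.628 CPM in the transfer libraries. Ccl3 had no count in any transfer library and was at least 10.6-fold lower against the floor. On the type 2 side Il13 had 5.52, 0.407 and 0 CPM in lean WT, 5.71, 4.15 and 3.13 in lean KO, 15.03 and 28.9 in transferred WT and 14.9 and 6.77 in transferred KO libraries (log2 fold change 2.34 ± 0.63 SE, adjusted p = 0.0234) and was higher like Il5. Il13 lost its call without transferred WT 1, transferred WT 2 or transferred KO 1 (highest adjusted p = 0.0635). Of the 20 T helper genes, 12 were tested, 5 were shared calls lower and 2 higher. In bulk libraries fewer cells of a kind and less RNA in each cell cannot be told apart.

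Of 10 markers of cytotoxic T and NK cells 4 were tested, with Nkg7 lower and Gzma higher as shared calls. The sum of the 10 was 161 to 382 CPM in lean and 45.7 to 112 CPM in transfer libraries. Most of it was Nkg7, a granule protein gene of cytotoxic and type 1 cells, with 136, 347 and 222 CPM in lean WT, 213, 282 and 165 in lean KO, 71.7 and 63.5 in transferred WT and 26.6 and 39.1 in transferred KO libraries (log2 fold change -2.24 ± 0.34 SE, adjusted p = 0.00327). The defining markers Cd8a, Klrb1c, Ncr1 and Klrd1 had at most 0.732 CPM in any of the 10 libraries. Of 10 B cell markers 3 were tested and 1, Ighm, was a shared call, lower. Their sum was 314 to 479.6 CPM in lean and 134 to 165 CPM in transfer libraries. Nearly all of this was Ighm (log2 fold change -1.45 ± 0.12 SE, adjusted p = 8.15e-07). Without it the means were 18.3 CPM on lean diet and 15.9 CPM after transfer, and Ms4a1 had at most 1.63 CPM. Sums of macrophage markers were 3.68 to 17.6 CPM in lean and 5.78 to 14.4 CPM in transfer, and of dendritic cell and class II markers 67.9 to 174 and 51.0 to 71.8 CPM. Markers of stromal cells, red blood cells and granulocytes summed to at most 10.1 CPM in every library. Lean and transfer sums were 41.5 to 79.5 and 38.2 to 63.9 CPM for endothelial markers. They were 135 to 205 and 162.5 to 206 CPM for mesothelial and epithelial markers, of which Upk3b and Krt19 were at 0 in every library. They were 19.3 to 28.5 and 18.2 to 44.4 CPM for adipocyte markers and 12.6 to 75.0 and 43.3 to 127 CPM for markers of type 2 innate lymphoid and mast cells. The part of other cells in the gene differences was not tested.

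Further receptors that steer T cells to other sites were lower. Of 23 listed chemokine and trafficking receptors 21 were tested, 4 were shared calls higher and 6 lower, with a median of -0.14. Gpr15, a gut and skin homing receptor, had 20.7, 55.4 and 35.3 CPM in lean WT, 41.4, 26.4 and 19.6 in lean KO, 1.93 and 2.81 in transferred WT and 0.209 and 0.366 in transferred KO libraries (log2 fold change -4.69 ± 0.46 SE, adjusted p = 8.04e-06). Cpox overlaps it. Ccr6, the receptor for CCL20, had 2.76, 17.1 and 10.7 CPM in lean WT, 16.8, 2.59 and 13.8 in lean KO, 1.29 and 0.175 in transferred WT and 0 and 0 in transferred KO libraries (log2 fold change -4.88 ± 0.88 SE, adjusted p = 0.0016). Cxcr5 (-4.50), the receptor for B cell follicles, and Gpr183 (-1.64), an oxysterol receptor that Ubac2 overlaps, were lower too. The higher receptors were Ltb4r1 (0.82), Ccr2 (0.63), Ccrl2 (0.62) and Ccr8 (0.50). Ccr8 lost its call without lean KO 1, transferred WT 1, transferred WT 2 or transferred KO 1 (highest adjusted p = 0.0886). Ccr4 (0.60, adjusted p = 0.0635), Cxcr6 (1.07, adjusted p = 0.0569) and Cxcr4 (0.61, adjusted p = 0.133), also linked to tissue T cells, were not shared calls.

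Adhesion molecules went both ways. Of 22 integrin and adhesion genes, 5 were shared calls higher and 7 lower. Itga1, the collagen-binding alpha 1 chain, went from 34.98 ± 10.7 CPM (SD, n = 6) to 4.602 ± 0.9595 CPM (SD, n = 4) (log2 fold change -2.90 ± 0.28 SE, adjusted p = 1.99e-06). Its partner Itgb1 had 466, 514 and 659 CPM in lean WT, 529.7, 419.8 and 210.4 in lean KO, 156 and 200.4 in transferred WT and 140.1 and 118 in transferred KO libraries (log2 fold change -1.60 ± 0.25 SE, adjusted p = 0.00349). Ly6c2 had 2.85 to 15.6 CPM in the lean and 0 to 0.175 CPM in the transfer libraries (log2 fold change -6.90 ± 0.82 SE, adjusted p = 2.38e-05). Itga4 (-0.76), Itgal (-0.60) and Itgb2 (-0.20) were lower by smaller amounts. Higher were Cd44 (0.98), the hyaluronan receptor, the integrin chains Itgav (0.71), Itgb3 (0.49) and Itgb7 (0.34), and Selplg (0.35), a selectin ligand. Itgb2 lost its call in 9 of the 10 fits without 1 library (highest adjusted p = 0.141), Itgb7 lost its call without lean WT 3, transferred WT 1 or transferred WT 2 (highest adjusted p = 0.0916), and Itgb3 lost its call without transferred KO 1 (highest adjusted p = 0.0557).

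Of 20 tested co-stimulatory and co-inhibitory receptors (21 listed), 3 were shared calls higher and 6 lower. Cd96, a nectin-binding receptor, went from 49.6 ± 16.2 CPM (SD, n = 6) to 11.3 ± 5.18 CPM (SD, n = 4) (log2 fold change -2.14 ± 0.30 SE, adjusted p = 0.000212). Btla (-1.46), Cd83 (-1.33), Vsir (-0.82), Cd6 (-0.64) and Cd28 (-0.43) were the other lower members, the call of Cd83 being lost with all 22 libraries in the fit (adjusted p = 0.116). Havcr2 (1.40), which encodes TIM-3, Cd200r1 (0.98) and Klrg1 (0.90) were higher. Havcr2 lost its call without lean WT 3, transferred KO 1 or transferred KO 2 (highest adjusted p = 0.0599).

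Immediate early and receptor-induced genes, which rise within minutes to hours of stimulation, were higher in 12 shared calls and lower in 0 among 30 tested, with a median of 0.61. By genotype the median was 0.81 in WT and 0.31 in KO. At an unadjusted p under 0.05 in edgeR 19 members were higher and 0 lower, and DESeq2 also called 19 higher and 0 lower. Nr4a1, the orphan receptor that reports T cell receptor signals, had 3206, 1728 and 2220 CPM in lean WT, 3358, 3357 and 3290 in lean KO, 5312 and 5733 in transferred WT and 5601 and 5799 in transferred KO libraries (log2 fold change 0.996 ± 0.16 SE, adjusted p = 0.00319). Its relative Nr4a3 went from 490.2 ± 82.5 CPM (SD, n = 6) to 1052 ± 198 CPM (SD, n = 4) (log2 fold change 1.10 ± 0.096 SE, adjusted p = 1.2e-06). The transcription factors Csrnp1 (0.98), Fosl2 (0.76) and Junb (0.54), the RNA decay factor Zfp36 (1.11), the phosphatase subunit Ppp1r15a (0.55) and the early activation antigen Cd69 (0.76) were higher too. Cd69 lost its call in 6 of the 10 fits without 1 library (highest adjusted p = 0.0805). Fos (0.61, adjusted p = 0.251), Jun (0.45, adjusted p = 0.242), Egr1 (0.72, adjusted p = 0.196), Dusp2 (-0.91, adjusted p = 0.276) and Egr2 (-0.46, adjusted p = 0.195) were not called.

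Genes of the IL-2 pathway went both ways, with the receptor alpha chain and feedback genes among the higher ones. Of 20 genes, 6 were shared calls higher and 2 lower, with a median of 0.061 (-0.039 with library totals). The block fit called 6 higher and 4 lower, and 10 fold changes were positive and 10 negative. Cish, an inhibitor that STAT5 induces, went from 754 ± 61.2 CPM (SD, n = 6) to 1155 ± 44.8 CPM (SD, n = 4) (log2 fold change 0.62 ± 0.066 SE, adjusted p = 7.36e-06). Socs1, another such inhibitor, went from 99.5 ± 8.602 CPM (SD, n = 6) to 186 ± 15.8 CPM (SD, n = 4) (log2 fold change 0.90 ± 0.10 SE, adjusted p = 1.11e-05). Osm, the cytokine oncostatin M and a STAT5 target, went from 32.2 ± 8.42 CPM (SD, n = 6) to 95.4 ± 17.4 CPM (SD, n = 4) (log2 fold change 1.56 ± 0.19 SE, adjusted p = 2.42e-05). Il2rg, the shared gamma chain of several cytokine receptors, and Bcl2l1 made up the rest of the higher and Il2rb and Bcl2 the lower members.

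In the NF-kB and TNF receptor list, 9 of 28 genes were shared calls higher and 2 lower, with a median of 0.24. The subunit Nfkb1 went from 275 ± 59.7 CPM (SD, n = 6) to 458 ± 72.8 CPM (SD, n = 4) (log2 fold change 0.74 ± 0.10 SE, adjusted p = 9.02e-05). The subunit Rel went from 196 ± 28.97 CPM (SD, n = 6) to 288 ± 31.8 CPM (SD, n = 4) (log2 fold change 0.56 ± 0.088 SE, adjusted p = 0.000342). Members of the inhibitor family, Nfkbia (0.84), Nfkbiz (0.66) and Nfkbid (0.61), and the receptors Tnfrsf9 (0.76), Tnfrsf25 (0.58) and Tnfrsf18 (0.48) rose as well. Cd27 (-0.60), a receptor, and Ltb (-0.32), a ligand of the family, were lower. Ltb lost its call without lean WT 2, lean WT 3, transferred WT 1 or transferred WT 2 (highest adjusted p = 0.127).

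Proximal signalling genes of the receptor were lower more often than higher: 8 of 27 were shared calls lower and 4 higher. The higher ones were Trac, Trbc2, Cd247 and Cd3g, described above. The kinase Prkcq was lower (log2 fold change -0.58 ± 0.13 SE, adjusted p = 0.00702), as were Cd6 (-0.64), Fyn (-0.51), Ptpn22 (-0.40), Zap70 (-0.39) and Ptpn6 (-0.38) among others. Ptpn6 lost its call in 6 of the 10 fits without 1 library (highest adjusted p = 0.111).

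Of the cell cycle genes all 30 were tested, 12 were shared calls lower and 1 was higher, with a median of -0.85 (-1.01 in WT and -0.59 in KO). Top2a, the topoisomerase of dividing cells, had 61.1, 41.2 and 71.1 CPM in lean WT, 42.9, 80.9 and 37.97 in lean KO, 21.9 and 10.3 in transferred WT and 25.1 and 19.9 in transferred KO libraries (log2 fold change -1.54 ± 0.27 SE, adjusted p = 0.00142). Every transfer library was below every lean library. The mitotic kinase Aurkb went from 17.8 ± 5.46 CPM (SD, n = 6) to 3.41 ± 1.42 CPM (SD, n = 4) (log2 fold change -2.36 ± 0.36 SE, adjusted p = 0.000256). Ube2c, a ubiquitin enzyme of mitosis, went from 20.5 ± 3.65 CPM (SD, n = 6) to 4.25 ± 2.27 CPM (SD, n = 4) (log2 fold change -2.27 ± 0.37 SE, adjusted p = 0.000483). Cdk1 (-1.78) and the replication helicase subunit Mcm4 (-0.75) were lower too. Mki67, a marker of cycling cells, had 51.04, 44.8 and 57.6 CPM in lean WT, 49.6, 76.7 and 20.99 in lean KO, 20.8 and 46.8 in transferred WT and 49.01 and 46.5 in transferred KO libraries, with overlapping groups (log2 fold change -0.30 ± 0.31 SE, adjusted p = 0.573). Ccnd2, a G1 cyclin that IL-2 and receptor signals induce, was the higher member (log2 fold change 0.47 ± 0.081 SE, adjusted p = 0.00076). Cdkn1a, the cell cycle inhibitor p21, went from 231 ± 81.5 CPM (SD, n = 6) to 462 ± 82.4 CPM (SD, n = 4) (log2 fold change 1.06 ± 0.12 SE, adjusted p = 4.29e-05).

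Survival genes of the BCL2 family went both ways. Bcl2 had 44.1, 96.2 and 96.2 CPM in lean WT, 56.8, 47.2 and 54.04 in lean KO, 22.1 and 10.3 in transferred WT and 18.01 and 19.4 in transferred KO libraries (log2 fold change -1.89 ± 0.27 SE, adjusted p = 0.000256) and was lower. Bcl2l1, which encodes the related BCL-XL, had 409.7, 347 and 382 CPM in lean WT, 416, 354 and 435 in lean KO, 547 and 544 in transferred WT and 581 and 553 in transferred KO libraries (log2 fold change 0.51 ± 0.076 SE, adjusted p = 0.000208) and was higher. Bcl2l11, which encodes the death-promoting BIM, was lower (log2 fold change -1.83 ± 0.40 SE, adjusted p = 0.00435). Bcl2a1b, one of several near-identical copies, was higher (log2 fold change 0.55 ± 0.14 SE, adjusted p = 0.0118). Of 23 tested genes (24 listed), 4 were shared calls higher and 2 lower.

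Interferon-stimulated genes were lower in 7 shared calls and higher in 0 among 24 tested (28 listed), with a median of -0.71. By genotype the median was -0.96 in WT and -0.59 in KO. At an unadjusted p under 0.05 in edgeR 14 members were lower and 0 higher, and DESeq2 called 11 lower and 0 higher. Igtp, an interferon-gamma induced GTPase that overlaps Irgm2, went from 193 ± 27.6 CPM (SD, n = 6) to 92.5 ± 17.9 CPM (SD, n = 4) (log2 fold change -1.06 ± 0.13 SE, adjusted p = 2.76e-05). Mx1 (-1.999), Oas3 (-1.93), Irf9 (-0.74), Irf7 (-0.69) and Stat2 (-0.57) were lower too, and Irf7 lost its call without transferred WT 2 (adjusted p = 0.0784). Oas3 lost its call without lean WT 3, transferred KO 1 or transferred KO 2 (highest adjusted p = 0.0931), and Stat2 lost its call without transferred WT 2 or transferred KO 1 (highest adjusted p = 0.0793). Ifit1bl1, an IFIT family gene outside the list, had 11.5, 40.8 and 33.5 CPM in lean WT, 16.1, 16.1 and 28.1 in lean KO, 0.859 and 0.351 in transferred WT and 0 and 0.183 in transferred KO libraries (log2 fold change -6.05 ± 0.54 SE, adjusted p = 1.2e-06). In the MHC class I list the peptide transporter and immunoproteasome genes were lower (Psmb10 (-0.60), Psmb9 (-0.42), Tap1 (-0.37) and Tap2 (-0.25)) and B2m was higher (log2 fold change 0.51 ± 0.053 SE, adjusted p = 5.7e-06), 4 and 1 shared calls of 16. Tap2 lost its call in 7 of the 10 fits without 1 library (highest adjusted p = 0.194), and Psmb10 lost its call without lean WT 3, transferred WT 1 or transferred WT 2 (highest adjusted p = 0.0863).

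Genes of oxidative phosphorylation were higher by small amounts where called. Of 74 nuclear oxidative phosphorylation genes, 18 were shared calls higher and 0 lower, with a median of 0.20 (0.098 with library totals), and 68 of the 74 had a positive fold change. At an unadjusted p under 0.05 in edgeR 30 were higher and 0 lower, and DESeq2 called 19 higher and 0 lower. Cox6c, a complex IV subunit that overlaps Vps13b, went from 127 ± 12.7 CPM (SD, n = 6) to 184 ± 9.53 CPM (SD, n = 4) (log2 fold change 0.54 ± 0.093 SE, adjusted p = 0.000738). Cox4i1, another subunit, went from 495 ± 58.7 CPM (SD, n = 6) to 644 ± 39.98 CPM (SD, n = 4) (log2 fold change 0.38 ± 0.085 SE, adjusted p = 0.00525). Uqcrb, of complex III, went from 52.2 ± 6.58 CPM (SD, n = 6) to 78.3 ± 11.99 CPM (SD, n = 4) (log2 fold change 0.58 ± 0.14 SE, adjusted p = 0.00761). Mitochondrially encoded mt-Cytb went from 1022 ± 76.9 CPM (SD, n = 6) to 1354 ± 119 CPM (SD, n = 4) (log2 fold change 0.41 ± 0.071 SE, adjusted p = 0.000906). Of that list 5 of 9 tested genes (15 listed) were shared calls higher and 0 lower, with 0 lower by DESeq2 or at an unadjusted p under 0.05 in edgeR. Of these, mt-Co2 and mt-Atp6 had at most 7.33 and 8.16 CPM in any library, against 2428 to 3303 CPM for mt-Co1. Nuclear copies of mitochondrial genes share their sequence, so both values are uncertain. Calls of mt-Co1, mt-Nd2 and mt-Co2 were lost under other settings (highest adjusted p = 0.148, 0.194 and 0.0769).

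Genes of fatty acid uptake and oxidation were higher where called. Those of sterol and fatty acid synthesis were called higher more often than lower. Of 28 tested genes of fatty acid uptake and oxidation (33 listed), 6 were shared calls higher and 0 lower, with a median of 0.23. Acadl, an acyl-CoA dehydrogenase, had 117, 95.3 and 113 CPM in lean WT, 96.1, 118 and 104 in lean KO, 157 and 149 in transferred WT and 180.3 and 159.8 in transferred KO libraries (log2 fold change 0.59 ± 0.10 SE, adjusted p = 0.000766). Dgat1 (0.59), the last enzyme of triglyceride synthesis, and Etfb (0.64), an electron carrier of beta oxidation, were higher, as were Plin2, a lipid droplet coat protein, Pparg and Acsl4 (0.57). Acsl4 lost its call without lean WT 1, lean KO 1, transferred WT 1 or transferred KO 2 (highest adjusted p = 0.143). The cholesterol synthesis genes Nsdhl (0.85) and Msmo1 (0.72) were among the higher ones. Acly, which makes cytosolic acetyl-CoA, had 340.2, 392 and 337 CPM in lean WT, 377, 332 and 353 in lean KO, 270 and 238 in transferred WT and 221 and 253 in transferred KO libraries and was lower (log2 fold change -0.54 ± 0.083 SE, adjusted p = 0.000293). The synthesis list had 3 shared calls higher and 1 lower of 29 tested (31 listed), or 10.3% and 3.45%. Its median was 0.33, the block fit called 6 higher and 1 lower, and 22 fold changes were positive and 7 negative. Glycolysis and hypoxia genes had 2 higher and 1 lower of 25 tested (8% and 4%) and a median of -0.0063. Egln3, an oxygen-sensing hydroxylase, had 32.2, 28.1 and 19.99 CPM in lean WT, 23.6, 23.3 and 32.2 in lean KO, 75.3 and 104 in transferred WT and 64.5 and 63.1 in transferred KO libraries (log2 fold change 1.52 ± 0.17 SE, adjusted p = 1.42e-05). Among insulin and PI3K genes Irs2, an insulin receptor adaptor, was higher (log2 fold change 1.41 ± 0.18 SE, adjusted p = 0.000116). Igf1r, the IGF-1 receptor, was lower (log2 fold change -2.06 ± 0.38 SE, adjusted p = 0.00163). The list had 2 shared calls in each direction of 25 (8% each). Over all genes tested the shares were 6.16% higher and 5.76% lower. By shares of shared calls, the synthesis, glycolysis and insulin lists lay near them.

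Protein folding and redox genes were higher where called. Of 21 unfolded protein response genes, 7 were shared calls higher and 0 lower, among them the chaperones Hspa5 (0.38), Hsp90b1 (0.35) and Calr (0.40) and the transcription factor Xbp1 (0.44). Of 23 tested antioxidant genes (24 listed), 6 were higher and 0 lower, led by Prdx1 (log2 fold change 0.53 ± 0.087 SE, adjusted p = 0.000504) and Txn1 (log2 fold change 0.39 ± 0.091 SE, adjusted p = 0.00761). Heat shock genes gave 3 higher and 0 lower of 19 tested. In the lists named so far with 0 lower shared calls, DESeq2 called 1 unfolded protein response gene lower and none of the others, and 1 fatty acid, 2 unfolded protein response, 2 antioxidant and 0 heat shock genes were lower at an unadjusted p under 0.05 in edgeR. Cytosolic ribosomal protein genes, with 1 higher and 5 lower of 77, had a median of -0.021 and stayed within a narrow band, with Rpsa at -0.31 among the lower ones. These shares stand beside 6.16% higher and 5.76% lower over all genes tested.

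**Figure D4:**
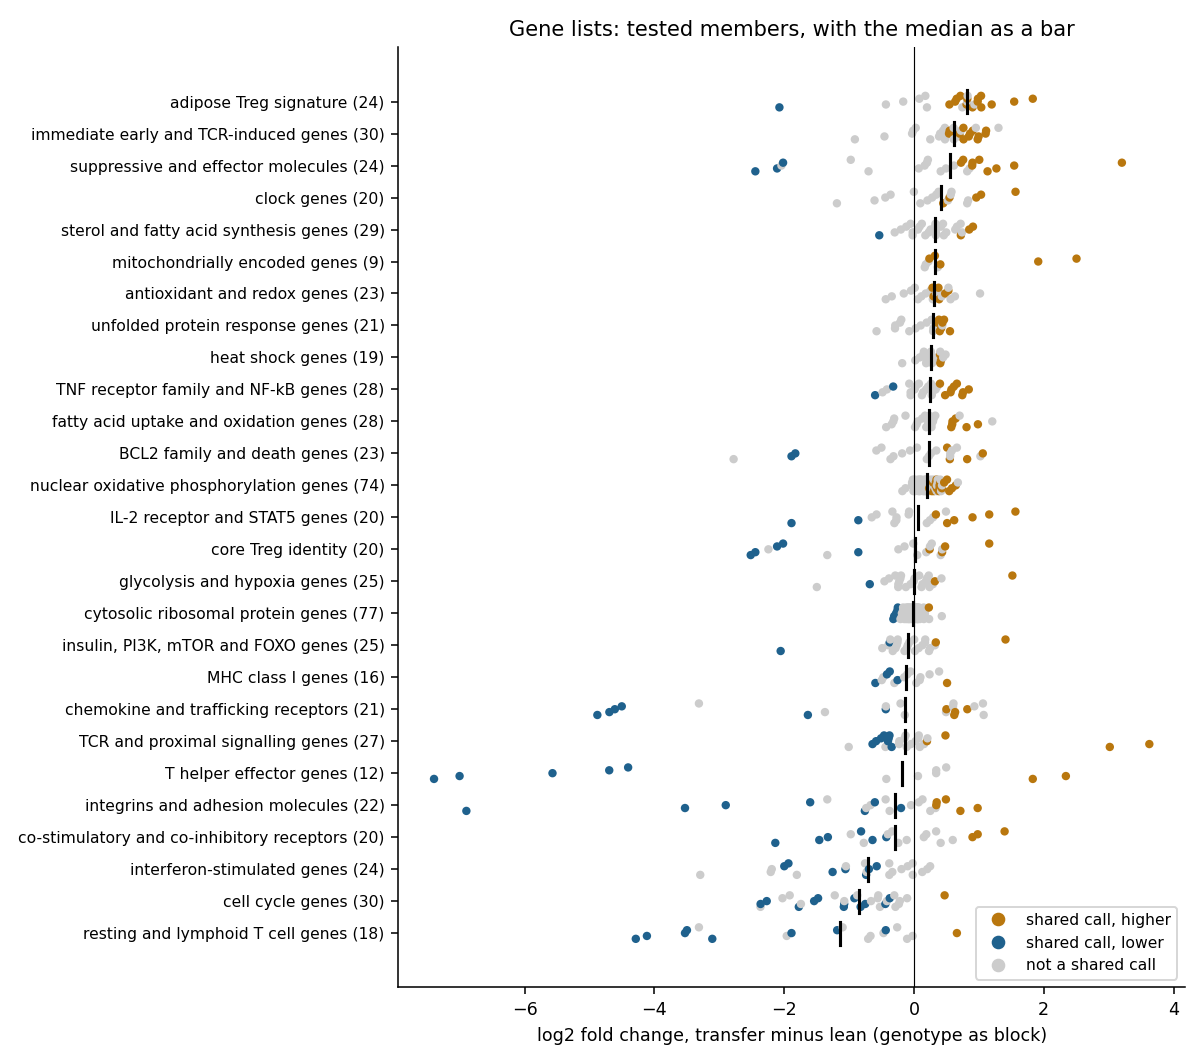
Log2 fold change of transfer over lean libraries (horizontal axis) for the tested members of 27 gene lists, their number in parentheses, with shared calls in colour and the list's median as a bar. Lists of markers of other cell types and of sex-linked transcripts are not plotted. Of the lists plotted, the adipose Treg signature has the highest median, 0.81, and the resting and lymphoid T cell genes the lowest, -1.14.

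Of 20 tested clock genes (21 listed), 5 were shared calls higher and 0 lower, DESeq2 called 5 higher and 0 lower, and 1 was lower at an unadjusted p under 0.05 in edgeR. Their median was 0.41, with 0.55 in WT and 0.18 in KO. Nfil3, a repressor in the clock output, had 57.9, 59.1 and 82.8 CPM in lean WT, 87.5, 103 and 72.4 in lean KO, 111 and 131 in transferred WT and 171 and 190 in transferred KO libraries (log2 fold change 0.96 ± 0.13 SE, adjusted p = 6.97e-05). Hlf, an output activator, had 9.65, 4.48 and 7.44 CPM in lean WT, 12.9, 18.1 and 17.4 in lean KO, 20.4 and 22.3 in transferred WT and 41.3 and 53.04 in transferred KO libraries (log2 fold change 1.56 ± 0.22 SE, adjusted p = 0.000116). Cry1, a repressor of the clock, had 79.5, 68.5 and 62.8 CPM in lean WT, 185, 154 and 184 in lean KO, 93.4 and 93.96 in transferred WT and 257 and 231 in transferred KO libraries (log2 fold change 0.45 ± 0.098 SE, adjusted p = 0.00455). KO libraries were above WT libraries in both experiments. Per1 (0.55) and Rora (1.03) were higher too. Clock (0.58, adjusted p = 0.0708), Npas2 (0.82, adjusted p = 0.265), Dbp (0.57, adjusted p = 0.177) and Per2 (-1.19, adjusted p = 0.289) were not called.

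Outside the lists, the greatest shared differences by fold or by p on the higher side included those of Gphn, Atp6v1d, Ptgir and Srgn. Gphn, the scaffold protein gephyrin (chr12:78226379-78684772), had 11.9, 22 and 22.8 CPM in lean WT, 31.1, 12.96 and 14.3 in lean KO, 115 and 104 in transferred WT and 137 and 114 in transferred KO libraries (log2 fold change 2.59 ± 0.21 SE, adjusted p = 7.58e-07). Atp6v1d, a proton pump subunit (chr12:78840725-78861638), had 62.99, 62.8 and 73.9 CPM in lean WT, 62.1, 62.2 and 76.4 in lean KO, 179.7 and 196 in transferred WT and 190.4 and 198 in transferred KO libraries (log2 fold change 1.52 ± 0.10 SE, adjusted p = 4.29e-08). Ptgir, the prostacyclin receptor, had 32.6, 23.6 and 46.03 CPM in lean WT, 38.6, 35.2 and 31.7 in lean KO, 116 and 134 in transferred WT and 98.4 and 98.95 in transferred KO libraries (log2 fold change 1.68 ± 0.16 SE, adjusted p = 1.64e-06). All 3 had every transfer library above every lean library. Srgn, the granule proteoglycan serglycin, went from 792 ± 148 CPM (SD, n = 6) to 1503 ± 234 CPM (SD, n = 4) (log2 fold change 0.93 ± 0.083 SE, adjusted p = 1.2e-06). Actn2 (2.27), an actin cross-linker, Septin8 (1.85), Msrb3 (2.14) and Jcad (2.17) were higher too. Jcad lost its call without lean WT 2, lean KO 1, lean KO 3, transferred WT 1, transferred WT 2 or transferred KO 2 (adjusted p = 0.0509 to 0.0975).

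On the lower side, P2rx7, the receptor through which extracellular ATP and NAD can kill tissue T cells, had 82.3, 122 and 187 CPM in lean WT, 103, 104 and 62.1 in lean KO, 9.66 and 0.526 in transferred WT and 4.82 and 1.097 in transferred KO libraries (log2 fold change -4.84 ± 0.62 SE, adjusted p = 0.00165). Dtx1, an E3 ligase of the Notch pathway, had 15.2, 27.7 and 27.9 CPM in lean WT, 10.4, 14.5 and 10.7 in lean KO, 0 and 0.175 in transferred WT and 0 and 0 in transferred KO libraries (log2 fold change -7.73 ± 0.59 SE, adjusted p = 2.4e-07). Dpp4, the surface peptidase CD26, had 12.9 to 41.2 CPM in the lean and 0 to 2.095 CPM in the transfer libraries (log2 fold change -4.78 ± 0.60 SE, adjusted p = 9.84e-05). P2rx7, Dtx1 and Dpp4 thus had no overlap between groups. Ctsw, a cathepsin of cytotoxic cells that overlaps Fibp, had 26.7 to 56.6 CPM in the lean and 0 to 3.11 CPM in the transfer libraries (log2 fold change -4.53 ± 0.52 SE, adjusted p = 0.000113). Gramd3 went from 36.9 ± 17.4 CPM (SD, n = 6) to 1.298 ± 1.01 CPM (SD, n = 4) (log2 fold change -4.73 ± 0.49 SE, adjusted p = 1.73e-05). Gimap6, a GTPase of lymphocyte survival, had 867, 957 and 1129 CPM in lean WT, 840.4, 918 and 878 in lean KO, 548 and 506 in transferred WT and 438 and 454 in transferred KO libraries (log2 fold change -0.94 ± 0.078 SE, adjusted p = 5.65e-07).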

How the data were processed

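Polyadenylated RNA of 1000 sorted cells per library was converted to cDNA, amplified, fragmented by transposon and sequenced as paired reads of 38 bases, per the labels' protocols. The authors aligned reads to mm10 with STAR 2.7.3a and counted them with featureCounts, per the submitters' processing notes. For the latter, version and settings are not given in the sources used. The deposited table holds whole-number counts for 55011 gene symbols, of which 52936 (96.2%) matched GENCODE M21. Whether PCR copies were removed before counting is not given either, so floors cover counting error only. All its columns matched a sample.

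The 10 libraries were fitted together with edgeR 4.0.16 in R 4.3.3 (filterByExpr with minimum count 10, TMM, robust quasi-likelihood F test, Benjamini-Hochberg), with genotype and transfer as terms. Fits with a mean per group gave the WT and KO effects and their difference. Receptor segment shares were computed per library and compared by exact permutation in Python 3.11.15. Alternatives were RLE scaling, library totals, no filter, a minimum count of 50, DESeq2 1.42.0, all 22 libraries, counts thinned to 1955940 per library, a replicate block, glmTreat against a log2 fold of 1, calls in WT and KO separately, and each library left out. The fits were tested on simulated counts with changes of a log2 fold of 1 or 2. Shared calls recovered 60.2% of the genes changed by 1 and 88.4% of those changed by 2. Smaller changes, like many of those described here, were not simulated. Deviations of same-numbered transfer and lean libraries from their group means correlated at -0.0602 to 0.0311. With 2 transfer libraries per genotype these deviations mirror each other, so the check cannot decide whether the libraries are paired. The count columns mark transfer libraries by the letters A and B and lean libraries by numbers. Replicate pairs differed beyond sampling noise (chi-square per gene 4.21 to 11.7).

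Named genes were Arntl, Nr1d1, Nr1d2, Foxp3, Il2ra, Pparg, Gata3, Il1rl1, Klrg1 and the leading V segments. To these were added shared calls: the 10 per direction with the greatest fold (20 CPM or more on average in transfer or lean libraries), the 6 per direction with the smallest p, and up to 5 per list by smallest p. These additions took no predicted gene, clone, pseudogene or receptor segment. All other genes named, and those of the closing section, were chosen after their values were seen. The comparison, the gene lists and the rule were chosen with earlier results of these data known. Some genes that the rule names are not reported here.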

Additional observations from a re-analysis of the deposited data

Results flagged for a closer look

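The difference between transfer and lean libraries varied with genotype for 3 of 11425 genes (0.0263%, edgeR interaction test, Benjamini-Hochberg). At an unadjusted p under 0.05 there were 759 genes, and DESeq2 called 21. None of the 3 was a shared call. Differences are KO minus WT on the log2 scale. Ctse, which encodes the endosomal protease cathepsin E, had 38.6, 19.1 and 26.04 CPM in lean WT, 27.1, 46.1 and 54.04 in lean KO, 482 and 391 in transferred WT and 59.5 and 39.3 in transferred KO libraries, and its difference was -3.74. Only the transferred WT libraries were high. Btg2, an antiproliferative immediate early gene, had 1179, 789 and 1122 CPM in lean WT, 1410, 1568 and 1662 in lean KO, 4388 and 5132 in transferred WT and 1576 and 2136 in transferred KO libraries, a difference of -1.95, with transferred WT again above all other libraries. H2-Q7, a nonclassical MHC class I gene with near-identical neighbours, had 1452, 1534 and 1535 CPM in lean WT, 1518, 1458 and 1404 in lean KO, 732 and 717 in transferred WT and 1567 and 1486 in transferred KO libraries, a difference of 1.12, with transferred WT at about the same low level in both libraries. Each rests on 2 transferred WT libraries, whose culture or animal of origin is not given in the labels.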

How the results depend on the processing

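Of 1694 calls of the block fit, counts under RLE, library totals, no filter, a minimum count of 50, DESeq2, all 22 libraries and thinning were 1546 to 2034. Calls in KO rose from 381 to 615 without a filter and to 589 with DESeq2, and those of the interaction from 3 to 46 without a filter, 21 with DESeq2 and 5 with all 22 libraries. Against a log2 fold of 1, glmTreat called 129 genes, 103 in WT and 49 in KO; it was not run for the interaction or for shared calls. In WT and KO separately 274 genes were called both times, against 1362 shared calls. Leaving out each library gave 1196 to 1744 block calls, 1121 to 1533 shared calls, 536 to 1323 calls in WT (536 without transferred WT 2), 113 to 477 in KO (113 without transferred KO 2) and 1 to 20 for the interaction (20 without lean WT 1). For the beta chain, the top V segment's share, transfer minus lean, was 67.3 to 74.0 percentage points, and segments to 50% of counts -3.2 to -2.4. Alpha chain shares were not compared again without single libraries. With a replicate block 1101 genes were called, 781 in WT and 194 in KO, with 972 shared calls. Whether the numbers pair the libraries is not known. Of 151 named genes, 22 then lost their call, among them Foxp3, Plin2, Gata3 (adjusted p = 0.0525), Rora (0.0539), Klrg1 (0.0512), Gzma (0.106) and Irf7 (0.0982). Of 151 named genes with a call, 121 kept it in all alternatives but glmTreat, which kept 36, and 0 reversed. Of the shared calls 869 held without any single library. Depth limits lean libraries most, where 3 counts are up to 1.56 CPM. The cause of these changes was not tested.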

Other observations

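The families below were chosen after their values were seen, and over all genes tested 6.16% were shared calls higher and 5.76% lower. Of the Gimap GTPases, a lymphocyte cluster on chromosome 6, all 8 were tested and 7 were shared calls lower: Gimap3 (-0.77), Gimap4 (-1.07), Gimap5 (-0.62), Gimap6 (-0.94), Gimap7 (-0.83), Gimap8 (-0.43) and Gimap9 (-0.71). Gimap1 (-0.12, adjusted p = 0.286) was not called. Of the Ms4a family 4 of 21 genes were tested and 3 were shared calls lower. Ms4a4b had 226, 365 and 401 CPM in lean WT, 267, 217 and 269 in lean KO, 57.1 and 33.1 in transferred WT and 45.5 and 23.2 in transferred KO libraries (log2 fold change -2.88 ± 0.25 SE, adjusted p = 7.8e-05), with every transfer library below every lean library, and Ms4a4c (-3.45) and Ms4a6b (-1.19) were lower too. Of the S100 genes 6 of 16 were tested, and S100a1 (1.07), S100a6 (1.01), S100a10 (0.72), S100a11 (0.68) and S100a13 (0.40) were shared calls higher. S100a4 (0.61, adjusted p = 0.0971) was not called, and S100a8 and S100a9 were among those too low to be tested. S100a1 lost its call without lean WT 1, lean WT 2, lean WT 3 or transferred WT 1 (highest adjusted p = 0.114). Next to Gphn and Atp6v1d on chromosome 12, Eif2s1 (0.73) was higher and Mpp5 (0.17) was not called.

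The predicted noncoding gene Gm2682 had 96.5, 205 and 185 CPM in lean WT, 106, 99 and 137 in lean KO, 1.503 and 0.175 in transferred WT and 5.45 and 0 in transferred KO libraries (log2 fold change -6.31 ± 0.70 SE, adjusted p = 0.000923), so a transcript well above the floor in each lean library was at 0 to 5.45 CPM after transfer.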
